A study of Saccharomyces cerevisiae with 21 samples.

Results

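The loss of Ndt80 was examined in cells that lack Tel1, by comparing Spo11 break maps of strain VG402 (*sae2*Δ *tel1*Δ) with those of strain MJ965 (*sae2*Δ *ndt80*Δ *tel1*Δ) at 6 h after transfer to sporulation medium. Both lack Sae2, and they are called *tel1*Δ and *ndt80*Δ *tel1*Δ below. Each was mapped in 5 libraries, 10 of the 21 libraries of the series, which were chosen by genotype and time alone. Libraries 1A and 1B of *tel1*Δ carry a single replicate number and were summed, which left 4 replicates against 5. Both strains are *Saccharomyces cerevisiae* SK1 diploids, *MAT***a**/α, with *ho*::*LYS2*, *nuc1*::*LEU2* and *his4X*::*LEU2*, and carry *arg4-nsp*, *ura3*, *lys2* and *leu2*::*hisG* as well. *SAE2* was replaced by *KanMX4* in VG402 and by *KanMX6* in MJ965, and *TEL1* by *HphMX4* in VG402 and by *HYG* in MJ965. *NDT80* was replaced by *LEU2* in MJ965 and was present in VG402. Each genotype was represented by 1 strain, so the other differences between the strains cannot be told apart from the loss of Ndt80.

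Spo11 makes the DNA double-strand breaks (DSBs) that start meiotic recombination, mostly in hotspots at promoters, and stays covalently bound to the 5′ end on each side of the break. Without Sae2 these ends are not processed, so CC-seq can map them to the base and strand by sequencing inward from the Spo11-bound end. Tel1, the orthologue of mammalian ATM, is a kinase activated at DSBs that restrains the formation of further DSBs nearby on the same chromosome. Ndt80 is the transcription factor that takes cells out of meiotic prophase, and cells without it arrest in prophase, where DSB formation can continue.

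Each replicate held between 3639390 and 9385310 nuclear reads outside the rDNA, and values below are reads scaled by this total as reads per megaread (RPM) or a percentage of it. A library was a relative map only, so a fall on 1 chromosome and a rise on another cannot be told apart from a change in the number of DSBs per cell. Background was read from 47 of 51 candidate ORFs over 5.5 kb, whose interiors are poor in breaks. It was 21.4, 28.0, 32.3 and 33.6 RPM per kb in *tel1*Δ replicates 1 to 4 and 10.3, 9.94, 25.2, 45.9 and 2.22 in *ndt80*Δ *tel1*Δ replicates 1 to 5. The *ndt80*Δ *tel1*Δ replicates therefore spanned a wider range on both sides of the other genotype, with replicate 4 highest and replicate 5 lowest of all 9 (difference in means -10.1, p = 0.302, two-sided exact permutation test). Replicates 3, 4 and 5 of *ndt80*Δ *tel1*Δ, which include both extremes, carry the letters TC in the names of their deposited counts. No *tel1*Δ library does. These 3 are called the time-course libraries below, a reading of TC that the sample titles do not give. Inside *NDT80* there were 73 to 124 reads in *tel1*Δ libraries and 0 or 1 in the *ndt80*Δ *tel1*Δ libraries, and *TEL1* held at most 29 and at most 16 reads.

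The shortest chromosomes lost reads and several of the longer ones gained them. Chromosomes I, III and VI together fell from 12.3% ± 0.788 (SD, n = 4) of reads in *tel1*Δ to 8.69% ± 1.06 (SD, n = 5) in *ndt80*Δ *tel1*Δ. Each of the 3 fell on its own, and chromosomes II, IV, XI, XIV and XV rose (adjusted p between 0.0423 and 0.0476 for these 8, two-sided exact permutation test with Benjamini-Hochberg adjustment over 16 chromosomes). The next shortest chromosomes, IX, VIII and V, also had lower mean shares but did not pass. The rise was not shared by all the long chromosomes. Chromosome XII, among the longest, had a lower mean share, and chromosome VII had means of 10.0% and 10.2% (adjusted p = 0.397, same exact test).

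On chromosome I the share was 3.13%, 2.999%, 2.85% and 2.82% in the *tel1*Δ replicates and 1.75%, 1.85%, 1.75%, 2.33% and 2.34% in the *ndt80*Δ *tel1*Δ replicates. Its mean fell by 32.2% and no replicates overlapped. On chromosome III, which carries the *HIS4*::*LEU2* and *leu2*::*hisG* inserts in both strains, the share was 6.02%, 5.33%, 5.18% and 5.24% before and 3.78%, 4.02%, 3.41%, 4.11% and 4.31% after Ndt80 loss. On chromosome VI it was 4.26%, 3.88%, 3.75% and 3.65% before and 2.47%, 2.36%, 2.44%, 3.14% and 3.40% after. The mean share fell by 27.8% on chromosome III and by 28.9% on chromosome VI, again with no overlap. Replicates 4 and 5 of *ndt80*Δ *tel1*Δ, the replicates with the highest and the lowest background, lay nearest to *tel1*Δ on all 3 of these chromosomes.

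Chromosome IV, the longest, showed the largest gain. Its share was 11.1%, 11.2%, 11.4% and 11.5% in *tel1*Δ and 14.1%, 14.0%, 13.6%, 12.1% and 12.5% in *ndt80*Δ *tel1*Δ, a mean rise of 17.6% with no overlap. Chromosome XIV rose from 5.15% ± 0.170 to 5.73% ± 0.137 and chromosome II from 6.94% ± 0.0249 to 7.68% ± 0.372 (SD, n = 4 and n = 5 throughout). Chromosomes XI (5.26% to 5.64%) and XV (9.45% to 9.80%) rose by less. On chromosome XV the values of 1 replicate of each genotype overlapped, since replicate 4 of *ndt80*Δ *tel1*Δ held 9.53% and *tel1*Δ replicate 1 held 9.54%.

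**Figure D1:**
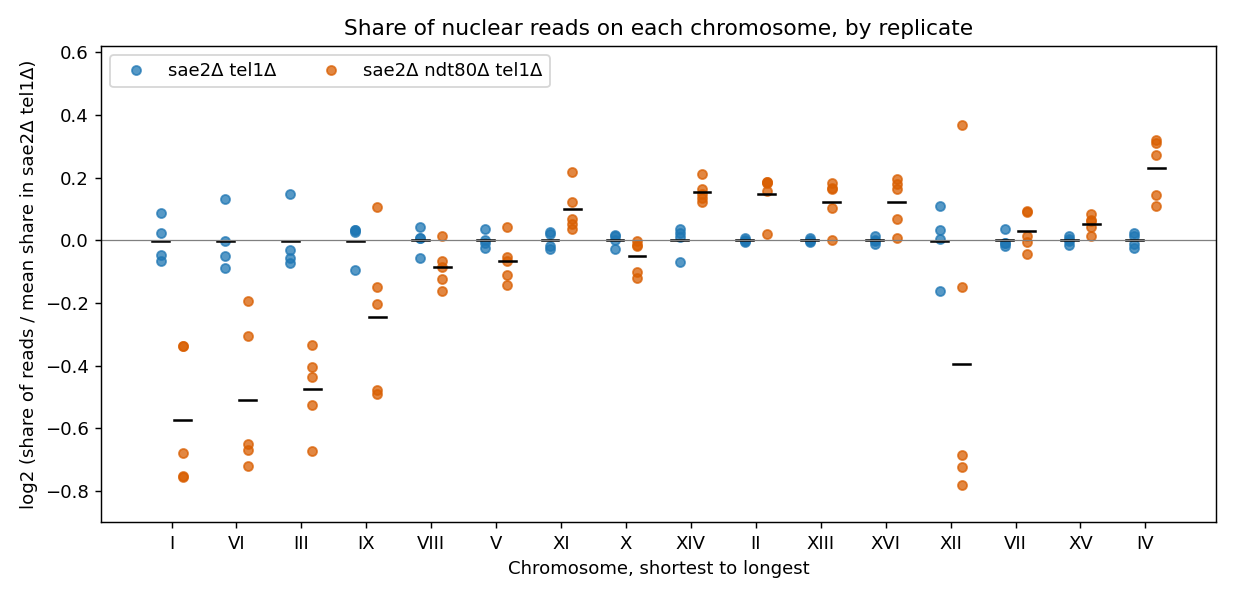
Share of nuclear reads on each chromosome, as log2 of the share over the mean share in *tel1*Δ, for chromosomes ordered from shortest to longest; points are replicates and bars are means of the points. The 5 *ndt80*Δ *tel1*Δ replicates lie below all *tel1*Δ replicates on I, III and VI and above them on II, IV, XI and XIV, and they spread widely on XII.

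The other 8 chromosomes did not pass the test. Chromosomes XIII and XVI had mean shares 9.05% and 9.06% higher (adjusted p = 0.0564 and 0.0635, two-sided exact permutation test), and chromosome VIII had a mean share 5.6% lower (adjusted p = 0.0808, same exact test). On chromosome XII outside the rDNA the share was 4.44%, 4.98%, 5.09% and 5.36% in *tel1*Δ and 2.89%, 3.01%, 4.49%, 6.41% and 3.09% in *ndt80*Δ *tel1*Δ (adjusted p = 0.229, same exact test). Replicate 4 of *ndt80*Δ *tel1*Δ, which had the highest background, was above every *tel1*Δ value and replicates 1, 2 and 5 were below all of them. On hotspot reads alone with the background subtracted, which changes both choices at once, the means were 2.58% and 2.44% (adjusted p = 0.567, same exact test). Over the 16 chromosomes, the log2 ratio of mean shares had a Spearman correlation of 0.70 with chromosome length, and of 0.44 over the 13 without I, III and VI; the points share their libraries, and the correlation is a description.

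The chromosome result was computed again on hotspot reads alone with the background of each replicate subtracted. Then 11 chromosomes passed, with falls from 3.43% to 2.00% on I, from 7.01% to 4.44% on III and from 4.69% to 2.91% on VI, and a rise from 10.8% to 13.6% on IV. Chromosomes VIII, X and XIII joined the others, with chromosome X falling from 8.60% to 7.93%. With 1 replicate left out, 13 chromosomes passed without *ndt80*Δ *tel1*Δ replicate 4 and 0 passed in each of the other 8 sets, in which the smallest p that the design can give is 0.0286 or 0.0179; the 8 directions were kept in every set.

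By distance from the centromere, with all chromosomes pooled, reads fell near centromeres and rose at a middle distance. Pericentromeric DNA is known as a region where meiotic DSBs are kept low. The share of reads between 10 and 25 kb from a centromere fell from 5.66% ± 0.200 (SD, n = 4) to 4.18% ± 0.303 (SD, n = 5), and the share between 25 and 50 kb fell from 7.90% ± 0.177 to 6.13% ± 0.546 (adjusted p = 0.0185 for each, exact two-sided permutation test over 7 distances). Between 50 and 100 kb it fell from 17.7% ± 0.663 to 15.05% ± 0.792 (adjusted p = 0.0278, same exact test). The gain lay between 200 and 400 kb, where the share was 24.5%, 25.3%, 25.8% and 25.7% in *tel1*Δ and 31.2%, 30.9%, 30.8%, 28.0% and 28.9% in *ndt80*Δ *tel1*Δ (adjusted p = 0.0185, same exact test). No replicates overlapped at these 4 distances. Between 100 and 200 kb (23.3% and 23.9%) and beyond 400 kb (18.7% and 19.8%) the difference did not pass (adjusted p = 0.119 for both, same exact test).

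Since most of chromosomes I, III and VI lies near a centromere, the distances were also compared on the other 13 chromosomes alone, as a share of their own reads. The same 4 distances passed, each with an adjusted p of 0.0278 (two-sided exact permutation test). Reads fell from 4.46% to 3.24% at 10 to 25 kb, from 6.40% to 5.00% at 25 to 50 kb and from 14.1% to 12.4% at 50 to 100 kb, and rose from 28.9% to 32.8% at 200 to 400 kb. The loss near centromeres was therefore also present on the longer chromosomes, in proportions between 0.726 and 0.884 of the *tel1*Δ share. On background-subtracted hotspot reads all 7 distances passed on these chromosomes, and the share at 100 to 200 kb, which was 23.7% and 24.0% on all reads, fell from 26.2% to 25.4% (adjusted p = 0.0397, same exact test).

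The first 10 kb beside the centromere did not pass on all reads. The share there was 1.27%, 1.498%, 1.57% and 1.54% in *tel1*Δ and 0.675%, 0.706%, 1.15%, 1.76% and 0.610% in *ndt80*Δ *tel1*Δ (adjusted p = 0.119, exact two-sided permutation test over all 16 chromosomes). Replicate 4, with the highest background, again stood above every other value. On background-subtracted hotspot reads the share fell from 0.660% to 0.405% with no overlap (adjusted p = 0.0139, same exact test), and the share beyond 400 kb also passed, rising from 15.8% to 18.7%. Leaving out *ndt80*Δ *tel1*Δ replicate 1, 2 or 3 left 0 of the 14 distances passing, against 8 with all replicates. Sets of 4 against 4 replicates cannot give a p under 0.0286 in the exact test, before adjustment over 7 distances. The 0 passes therefore do not show that the result rests on the replicate left out. Without replicate 4 there were 10, without replicate 5 there were 5, and without any *tel1*Δ replicate there were 8.

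**Figure D2:**
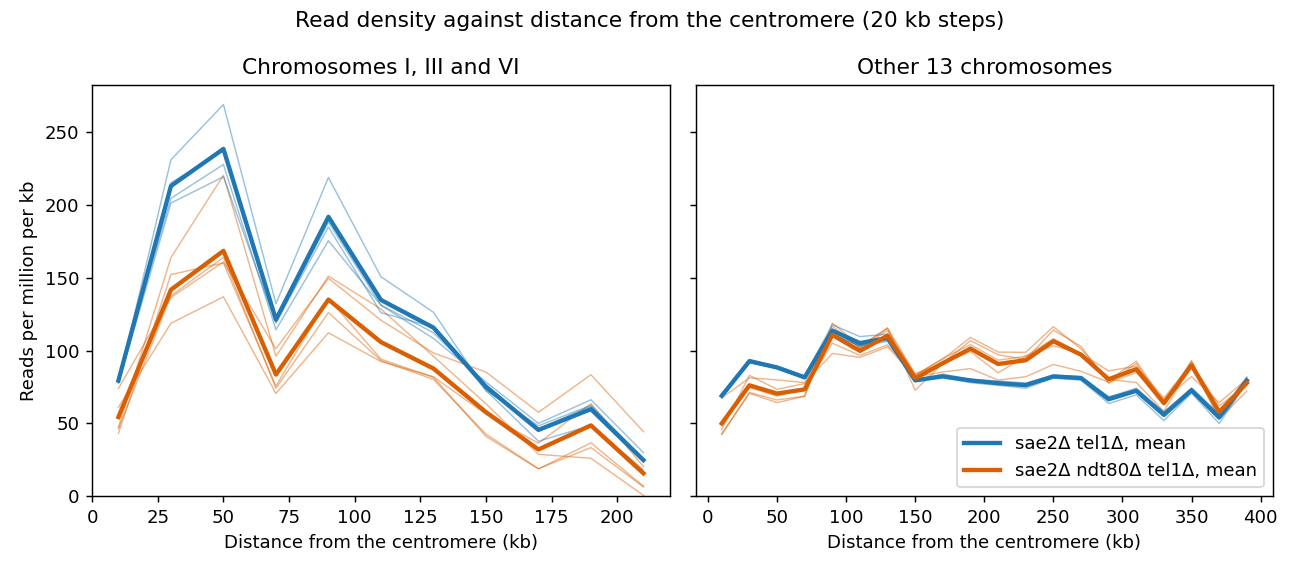
RPM per kb against distance from the centromere in steps of 20 kb; thin lines are replicates and thick lines are means of the genotypes. On chromosomes I, III and VI the *ndt80*Δ *tel1*Δ mean lies below the other at every distance, and on the other 13 it lies below near the centromere and above it between 120 and 380 kb.

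The mean distance of reads from the centromere does not depend on the share that a chromosome takes. It was larger after Ndt80 loss on 15 of 16 chromosomes, by up to 36.6 kb on chromosome XII, and smaller by 1.66 kb on chromosome IV. On chromosome XIII it was 256, 261, 262 and 261 kb in *tel1*Δ and 278, 276, 276, 270 and 272 kb in *ndt80*Δ *tel1*Δ. On chromosomes XIV (249 and 262 kb), V (151 and 159 kb) and I (54.0 and 57.0 kb) the replicates did not overlap either. None of the 16 passed, however (adjusted p = 0.0635 for these 4, exact two-sided permutation test over 16 chromosomes). On background-subtracted hotspot reads all 16 means were larger and 12 passed, while III, VI, II and XII did not. Without the time-course libraries 9 of 16 were larger, in a design of 4 against 2 replicates that cannot give a p under 0.0667.

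Counts in 10 kb windows gave the same comparison without hotspot calls. Of 1207 windows, 174 (14.4%) had an adjusted p under 0.05 in edgeR's quasi-likelihood test, 119 higher after Ndt80 loss (9.86%) and 55 lower (4.56%), and the median log2 ratio of all windows was -0.16. Of the 82 windows on I, III and VI, 26 fell and 0 rose, against 29 and 119 of 1125 on the other chromosomes. Within 10 kb of a centromere all 32 windows had a log2 ratio below 0, against 771 of all 1207. Their median was -0.61, although only 3 passed. Between 200 and 400 kb 67 of 353 windows rose and 2 fell, with a median of 0.03. Without the time-course libraries 1000 windows passed, 273 higher and 727 lower, and on I, III and VI 75 fell and 0 rose. At 200 to 400 kb the balance was then the other way, with 130 higher and 166 lower windows and a median of -0.15, while the median of all windows was -0.39.

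The windows that passed often lay side by side. Among the higher ones 60 lay in 25 runs of neighbours, and among the lower ones 25 lay in 9 runs. The longest higher run was 5 windows on the left arm of chromosome XVI (chrXVI:340001-390000, 166 to 216 kb from the centromere). It held 4918, 5067, 5012 and 4791 RPM in *tel1*Δ and 9968, 9191, 8895, 5465 and 9641 RPM in *ndt80*Δ *tel1*Δ. All 5 replicates lay above the other genotype, replicate 4 by the least, and the ratio of means was 1.74 (edgeR, adjusted p between 0.00114 and 0.0368 for its windows).

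The longest lower runs were a pair of the same length on the left arm of chromosome I (chrI:40001-90000 and chrI:100001-150000, 5 windows each), and with 2 further lower windows they made up all 12 on that chromosome. The run nearer to the centromere held 8481, 8707, 8199 and 8169 RPM in *tel1*Δ and 4360, 4676, 4223, 6122 and 5630 RPM in *ndt80*Δ *tel1*Δ. The groups did not overlap, and the ratio of means was 0.596 (edgeR, adjusted p between 0.000717 and 0.0325 for its windows). The other run had a ratio of 0.642. Chosen after the values were seen, the windows that passed with the largest change in each direction were chrII:710001-720000 (log2 ratio 1.452, SE 0.22, edgeR adjusted p = 0.000704) and chrI:110001-120000 (log2 ratio -0.90, SE 0.14, edgeR adjusted p = 0.000717).

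**Figure D3:**
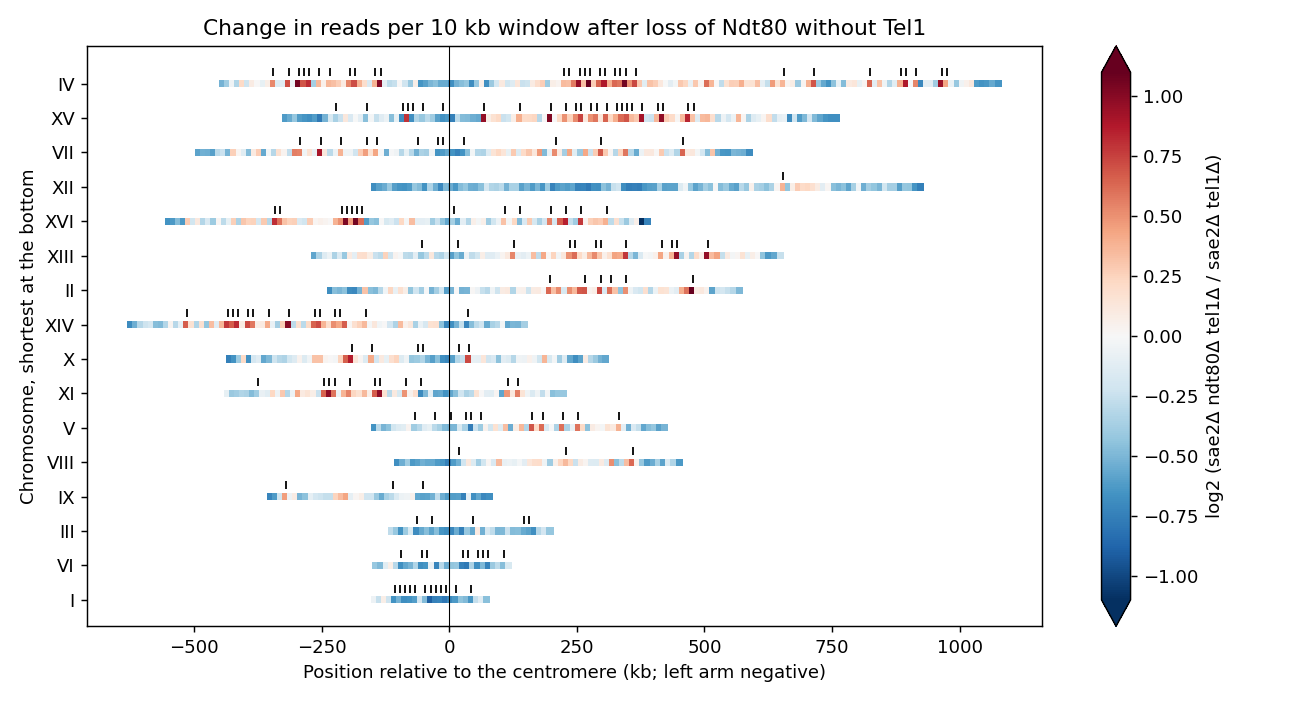
Log2 ratio of *ndt80*Δ *tel1*Δ over *tel1*Δ in 10 kb windows, each row a chromosome aligned at its centromere, with distance in kb on the x axis, colours limited at ±1.1 and ticks for windows with an adjusted p under 0.05. Lower windows gather around the centromeres and over chromosomes I, III and VI, and the 119 higher windows lie mostly on the long arms.

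Hotspots were then compared one by one. The 3292 hotspots, of median length 204 bp, were called anew in mean maps of the genotypes that lack Ndt80, so hotspots strong after Ndt80 loss are favoured in the counts. Of 3291 tested, 670 (20.4%) had an adjusted p under 0.05 in edgeR's quasi-likelihood test. Among these, 579 were higher (17.6%) and 91 lower (2.77%) in *ndt80*Δ *tel1*Δ, and 1178 had an unadjusted p under 0.05. The balance depended on the scaling. Hotspots held 55.99% to 64.7% of reads in *tel1*Δ and 45.8% to 87.0% in *ndt80*Δ *tel1*Δ, and the median log2 ratio of all hotspots was 0.29. Relative to the total in hotspots there were 560 higher (17%) and 268 lower (8.15%), and after background subtraction 652 higher (19.9%) and 285 lower (8.68%) of 3284. With hotspots called in the average of the compared genotypes instead, 499 were higher and 96 lower of 2817.

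Most hotspots that passed were lower on the short chromosomes and higher on the others. On I, III and VI 3 hotspots rose and 40 fell of 234, and the median log2 ratio was -0.36 against 0.33 on the other 13 chromosomes. Chromosome I had 0 higher and 16 lower of 66, chromosome VI 1 and 15 of 85 and chromosome III 2 and 9 of 83. Chromosome IV was at the other end, with 132 higher and 0 lower of 413 and a median of 0.53. Under the hotspot-total scaling the medians were -0.53 on I, III and VI and 0.32 on chromosome IV, so neither direction turned. Chromosome XII stood between them, with 12 higher and 10 lower of 221 and a median of 0.02, and under that scaling the medians of X and XII were -0.07 and -0.17. Without the time-course libraries chromosome XII had 20 higher (9.05%) and 118 lower (53.4%) hotspots and a median of -0.48. Over all hotspots that setting gave 34.9% higher and 24.7% lower, with a median of 0.09.

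The log2 ratio also followed distance from the centromere. The median was -0.46 in the 42 hotspots within 10 kb, -0.33 at 10 to 25 kb, -0.21 at 25 to 50 kb and -0.04 at 50 to 100 kb. It was 0.28 at 100 to 200 kb, 0.53 in the 948 hotspots at 200 to 400 kb, of which 281 rose and 1 fell, and 0.41 beyond 400 kb. On the 13 longer chromosomes alone the medians within 50 kb were -0.44, -0.31 and -0.17. Of the 91 lower hotspots 81.3% lay within 100 kb of a centromere and 44.0% on I, III and VI, against 25.2% and 7.11% of all hotspots. Of the 579 higher hotspots 5.35% lay within 100 kb and 0.518% on these chromosomes.

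Each hotspot was placed against genes by its midpoint alone, so a hotspot centred inside a gene can reach beyond it. Hotspots between divergent genes, which hold a promoter on each side, had a median log2 ratio of 0.23, those between tandem genes 0.34, those centred inside a gene 0.23 and the 64 between convergent genes 0.47. The 4 equal groups by hotspot strength had medians between 0.25 and 0.31, and between -0.09 and 0.33 without the time-course libraries, with the strongest group highest.

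Hotspots with at least 100 RPM and with replicates that did not overlap were named by size of change, 6 in each direction. Separation of the genotypes at these hotspots therefore follows from the choice and is not a result. In all, 643 of 3292 hotspots (19.5%) did not overlap between the genotypes. The strength was the mean over both genotypes, so a hotspot could reach it through the genotype in which it was high, and 5 of the 6 higher hotspots had a mean under 100 RPM in *tel1*Δ.

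The hotspot with the largest gain lay between *SPR2*, which encodes a spore wall protein, and *AIM41* (chrXV:746454-746725). It held 29.3, 28.6, 27.3 and 22.3 RPM in *tel1*Δ and 213.7, 202.5, 377, 71.2 and 257 RPM in *ndt80*Δ *tel1*Δ. Replicate 4 was the lowest of those lacking Ndt80 (log2 ratio 3.06, SE 0.38, edgeR adjusted p = 0.00157). The hotspot between *HOS4*, encoding a subunit of the Set3 histone deacetylase complex, and *COX5B*, encoding a cytochrome c oxidase subunit made in low oxygen (chrIX:154927-155206), held 25.1 to 39.8 RPM and 54.7 to 426 RPM (log2 ratio 2.58, SE 0.45, edgeR adjusted p = 0.00425). It was also among those in which the strands changed, with Watson reads falling from 61.3% to 45.2%.

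The remaining higher ones lay on IV, XIII and XVI. Between *LRS4*, a monopolin subunit, and *DOT1*, a histone H3 methyltransferase (chrIV:1342046-1342440), values were 101, 109, 101 and 91.5 RPM and 396, 424, 448, 168 and 722 RPM. The log2 ratio was 2.10 (SE 0.32, edgeR adjusted p = 0.00398). The hotspot between the peroxisomal gene *PEX29* and *DIG2*, an inhibitor of the transcription factor Ste12 (chrIV:1416878-1417324), had a log2 ratio of 2.29 (SE 0.42, edgeR adjusted p = 0.00448). That between *MEX67*, needed for mRNA export, and *MRX4* (chrXVI:230865-231120) had one of 2.16 (SE 0.33, edgeR adjusted p = 0.00398). In both of these replicate 5 was the highest, at 958 and 327 RPM, and without it the log2 ratios were 1.65 and 1.82.

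The hotspot between *SNO1* and *SNZ1*, a pair of vitamin B6 synthesis genes (chrXIII:458033-458317), owed the size of its change to replicate 5. It held 24.7, 32.3, 32.9 and 34.7 RPM in *tel1*Δ and 35.9, 61.7, 52.6, 52.7 and 944 RPM in *ndt80*Δ *tel1*Δ. Of the 5 *ndt80*Δ *tel1*Δ values, 4 were near the other genotype (log2 ratio 2.88, SE 0.85, edgeR adjusted p = 0.0287). Without replicate 5 the log2 ratio was 0.71 and the hotspot still passed (edgeR adjusted p = 0.0105). The call was lost in 5 alternatives, which were each *tel1*Δ replicate left out in turn (edgeR adjusted p between 0.0688 and 0.086) and the library series as a term (log2 ratio 0.65), and DESeq2 gave no adjusted p.

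The 6 lower hotspots all lay within 56.1 kb of a centromere, and each fell to about the same degree, with log2 ratios between -1.17 and -0.996. Between *SSA1*, an Hsp70 chaperone gene, and *EFB1*, a translation elongation factor gene (chrI:141590-142112), values were 613, 572, 538 and 469.6 RPM in *tel1*Δ and 224, 229.6, 229, 316 and 217 RPM in *ndt80*Δ *tel1*Δ. Replicate 4 was the highest of the 5 lacking Ndt80 (log2 ratio -1.17, SE 0.20, edgeR adjusted p = 0.00425). Between *RPB11*, an RNA polymerase II subunit gene, and *SIN3*, a subunit gene of the Rpd3 histone deacetylase complex (chrXV:316237-316702), the mean fell from 394 ± 26.6 RPM to 178 ± 31.1 RPM (SD, n = 4 and n = 5; log2 ratio -1.14, edgeR adjusted p = 0.00425). This hotspot lay 10.0 kb from the centromere of a chromosome whose total share rose.

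The others were the hotspot between *HIS2*, of histidine synthesis, and *ULI1* (chrVI:204609-205155, log2 ratio -1.15), that centred in *ATS1* (chrI:113131-114333, -1.13), that centred in *YFR018C* (chrVI:183995-184446, -1.12) and that between *SBH2*, of the ER translocon, and *GPA2*, a G-protein alpha subunit gene (chrV:194586-195359, -0.996). Each had an edgeR adjusted p between 0.00448 and 0.00737. The hotspot centred in *ATS1* held 1249, 1260, 1027 and 1215 RPM in *tel1*Δ and 607, 743, 316, 503 and 549.5 RPM in *ndt80*Δ *tel1*Δ, and its call was lost with the library series as a term (log2 ratio -0.82).

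The 3 strongest hotspots did not pass in the fit to all replicates, and 2 of them passed under other settings. The hotspot between *SND1*, of protein targeting to the ER, and *CCT6*, a chaperonin subunit gene (chrIV:834865-837036), held 5591 to 6745 RPM in *tel1*Δ and 3197 to 8110 RPM in *ndt80*Δ *tel1*Δ (log2 ratio -0.23, edgeR adjusted p = 0.565). The strong hotspot at *BUD23*, an rRNA methyltransferase gene (chrIII:213905-216945), held 5393 to 7831 RPM and 2887 to 5972 RPM (log2 ratio -0.54, edgeR adjusted p = 0.125). It passed as lower under 4 alternatives, among them the hotspot-total scaling (log2 ratio -0.72, edgeR adjusted p = 0.0147) and background subtraction (log2 ratio -0.73, edgeR adjusted p = 0.0134). The hotspot between *YMR265C* and *RSN1* (chrXIII:797434-798968) held 3850 to 4656 RPM and 2805 to 8091 RPM (log2 ratio 0.49, edgeR adjusted p = 0.225). It passed as higher without *ndt80*Δ *tel1*Δ replicate 4 (log2 ratio 0.67, edgeR adjusted p = 0.0132), without the time-course libraries and with the library series as a term (log2 ratio 0.90 in both). In all 3 the replicates lacking Ndt80 spread more widely and overlapped the others.

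**Figure D4:**
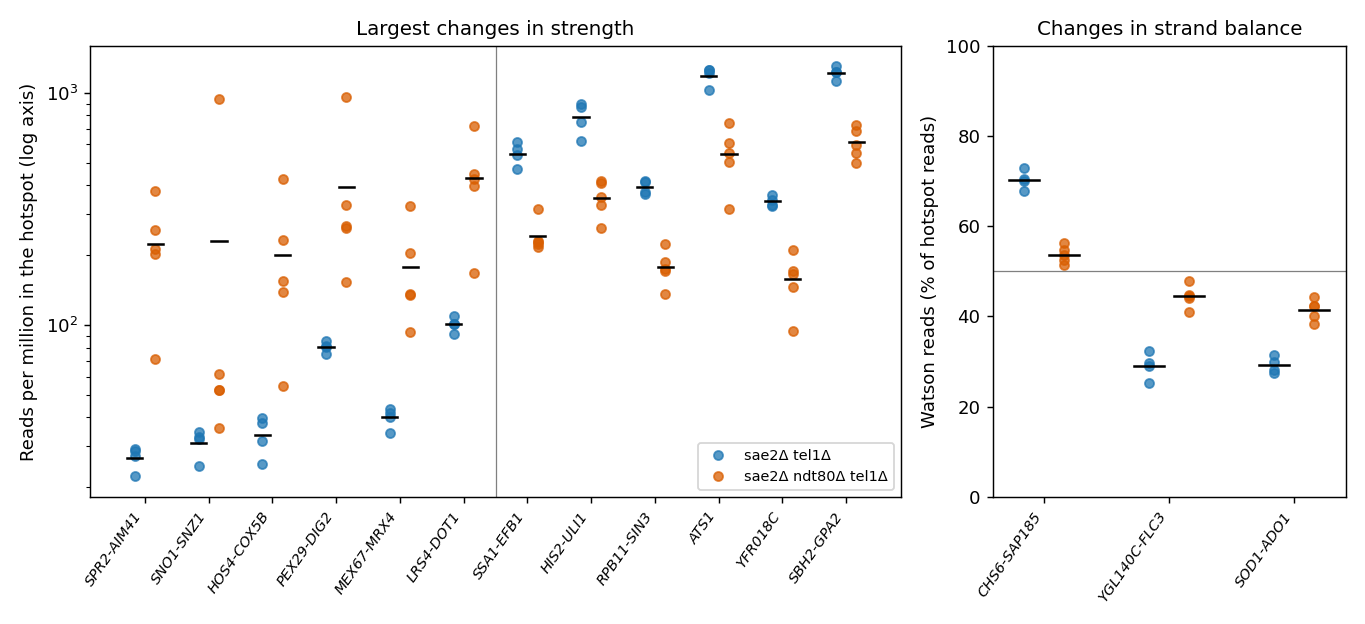
Left, RPM in each replicate on a log axis for the 6 higher and 6 lower hotspots; right, percentage of reads on the Watson strand for the 3 named strand hotspots, with bars at the means. The genotypes separate at all 12 strength hotspots because these were chosen without overlap, and at *SNO1*–*SNZ1* a single replicate stands at 944 while the other 4 lie between 35.9 and 61.7.

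The change in the longest hotspots depended on the libraries used. The hotspots were divided by length into 4 groups of 823, at 131, 204 and 347 bp. The longest group held 76.1%, 73.4%, 72.6% and 74.6% of hotspot reads in *tel1*Δ and 77.6%, 76.7%, 70.8%, 69.4% and 66.1% in *ndt80*Δ *tel1*Δ. The replicates overlapped, with the non-time-course replicates 1 and 2 highest and replicates 3, 4 and 5 lowest of all (adjusted p = 0.836, exact two-sided permutation test over 4 groups). The other groups did not pass either (adjusted p between 0.836 and 0.976, same exact test). From the shortest to the longest group the median log2 ratios were 0.26, 0.34, 0.34 and 0.22. In the same order 10.1%, 17.9%, 24.5% and 17.9% of hotspots passed as higher and 2.55%, 1.70%, 1.70% and 5.10% as lower. Without the time-course libraries the medians were -0.13, 0.04, 0.17 and 0.30, higher in each longer group. Beyond 100 kb on the 13 longer chromosomes they were 0.38, 0.46, 0.53 and 0.39, and in the remaining hotspots, on I, III and VI or within 100 kb, they were -0.15, -0.10, -0.08 and -0.22.

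The spread of reads inside hotspots was measured as the distance between the 25th and 75th percentile of read positions, in the 2220 hotspots with a mean of at least 200 reads. The median over hotspots was 81, 74, 75 and 77 bp in *tel1*Δ and 84, 77, 79, 79 and 77 bp in *ndt80*Δ *tel1*Δ. The groups overlapped (adjusted p = 0.503, exact two-sided permutation test over 5 values). In the longest group it was 176 ± 8.58 bp (SD, n = 4) and 187 ± 12.4 bp (SD, n = 5; adjusted p = 0.377, same exact test).

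The strands were offset more after Ndt80 loss in most hotspots, but the test over replicates did not pass. The offset was the mean position of Watson reads minus that of Crick reads. In the longest group its median was 48.2, 17.4, 24.1 and 29.8 bp in *tel1*Δ and 72.9, 63.0, 68.7, 34.5 and 55.3 bp in *ndt80*Δ *tel1*Δ. Only replicate 4 of *ndt80*Δ *tel1*Δ lay within the range of the other genotype, below its replicate 1 (p = 0.0317, adjusted p = 0.132, exact two-sided permutation test over 5 values). Over all 2220 hotspots it was 9.14 ± 5.71 bp (SD, n = 4) and 17.9 ± 6.41 bp (SD, n = 5; adjusted p = 0.132, same exact test). Comparing genotype means hotspot by hotspot, the offset was larger in 1931 of 2220 (87.0%), and in 767 of 817 in the longest group. The replicates did not overlap in 235 of the 2220 hotspots, all with a larger offset after Ndt80 loss, and 173 of these lay in the longest group. In the remaining hotspots the replicates overlapped. These hotspots share their libraries and are not independent. Background was highest of all in *ndt80*Δ *tel1*Δ replicate 4 (45.9 RPM per kb) and, within *tel1*Δ, lowest in replicate 1 (21.4). The lowest of all was in *ndt80*Δ *tel1*Δ replicate 5 (2.22), with an offset of 55.3 bp in the longest group. No offset with the background subtracted is given here, and a relation of the offset to background was not tested.

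**Figure D5:**
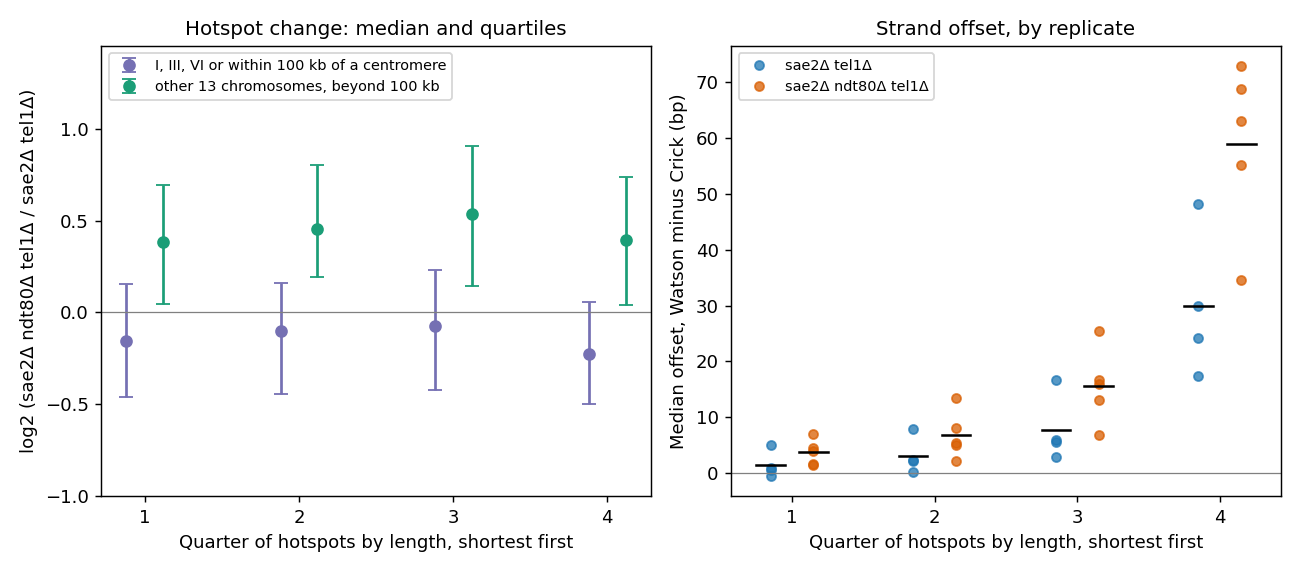
Left, median and quartiles of the log2 ratio of hotspots by length group (4 groups of equal size), for hotspots on I, III and VI or within 100 kb of a centromere and for the remaining hotspots; right, offset of Watson from Crick reads in bp for each replicate and group. The medians of the 2 sets are apart in every group, the quartile ranges overlap in all but the second shortest group, and in the longest group the offset means are 29.9 and 58.9 bp.

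The total balance of the strands hardly moved. Watson reads were 50.4% ± 0.134 (SD, n = 4) of hotspot reads in *tel1*Δ and 50.2% ± 0.0780 (SD, n = 5) in *ndt80*Δ *tel1*Δ (adjusted p = 0.0635, exact two-sided permutation test over 2 values). By chromosome, the replicates were apart on III (51.6% and 50.4%) and IX (49.9% and 50.7%) alone, which was not tested.

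At single hotspots the strand balance changed in 163 of 3285 (4.96%; edgeR, adjusted p under 0.05 for the genotype by strand term), with the Watson share higher in 69 (2.10%) and lower in 94 (2.86%), and 604 had an unadjusted p under 0.05. Of the 163, 104 were nearer to 50% Watson after Ndt80 loss and 59 farther from it. Over the 744 hotspots with at least 1000 reads 402 (54.0%) were nearer. Of the 163, 59 (36.2%) also changed in strength, against 20.4% of all hotspots tested for strength.

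The 3 hotspots named for strand were chosen by the smallest strand p in these same data. They kept their calls in all 12 alternatives, which reuse these libraries, so kept calls and separate replicates are favoured by the choice. Between *CHS6*, of chitin synthase export, and *SAP185*, a partner of the Sit4 phosphatase (chrX:241519-242067), Watson reads were 70.1%, 72.9%, 70.5% and 67.8% in *tel1*Δ and 56.3%, 53.6%, 54.6%, 51.5% and 52.5% in *ndt80*Δ *tel1*Δ. The groups were far apart (log2 Watson over Crick -1.03, SE 0.11, edgeR adjusted p = 0.000352), and the hotspot also rose from 393 to 1105 RPM (log2 ratio 1.49, edgeR adjusted p = 0.00425). Between *YGL140C* and *FLC3* (chrVII:245103-245507) Watson reads rose from 29.0% ± 2.85 (SD, n = 4) to 44.5% ± 2.43 (SD, n = 5). Between *SOD1*, the copper-zinc superoxide dismutase gene, and *ADO1*, the adenosine kinase gene (chrX:622730-623910), they rose from 29.2% ± 1.76 to 41.4% ± 2.33 (edgeR adjusted p = 0.00114 for both). In each of the 3 the minor strand gained share and no replicates overlapped.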

How the data were processed

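The authors mapped CC-seq reads with Bowtie2 through TermMapper to R64 with the inserts on chromosome III added, and deposited raw read counts of Watson and Crick 5′ ends per base for each library, not normalised. The versions of Bowtie2 and TermMapper were not given in the sources used here. Coordinates are of that build, and gene names come from a RefSeq gene table of R64. The members and lists were chosen with earlier results of these data known.

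Libraries 1A and 1B were summed, since they share a replicate number and differed by 1.18 times the counting variance against 3.03 to 11.0 for other *tel1*Δ pairs. Pairs of *ndt80*Δ *tel1*Δ replicates differed by 8.39 to 141 times the counting variance (median 65.3), so their spread was much wider. The study's methods call the replicates of a genotype biological and independent, without naming the culture of each library, and p-values measure the spread between these samples. Library totals were 3847380 to 5518572 reads and 3654430 to 5543035 reads. Counts on the 16 nuclear chromosomes outside the rDNA set the library size. Hotspots were called anew on mean maps of the genotypes that lack Ndt80, with the smoothing, cut-off and merging of the study's methods, and the list differs in number from the study's own. Background came from the 47 longest of 51 ORFs over 5.5 kb, leaving out *TEL1* and ORFs within 20 kb of a chromosome end, and whether the study used the same 47 could not be checked. Counts were tested with edgeR 4.0.16 (filterByExpr, quasi-likelihood test, Benjamini-Hochberg over all hotspots or windows), with DESeq2 1.42.0 tried instead. Values with 1 number per replicate were tested by exact permutation over all splits of 9 replicates, whose smallest p is 0.00794. The fits were tested on simulated data.

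Named hotspots were 6 higher and 6 lower, ranked by size of log2 ratio where the adjusted p was under 0.05, the mean over both genotypes at least 100 RPM and the replicates apart, the 3 strongest, and the 3 of that strength with the smallest strand p. Windows named were the longest runs of called neighbours. Alternatives changed scaling, background, hotspot calls, window length, replicates, library series and test. Placement of genes left of the chromosome III centromere was not used here, because of the inserts.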

Additional observations from a re-analysis of the deposited data

Results flagged for a closer look

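Of 142 groups of replicate values examined for a single replicate far from the rest, 9 had one, and chance gives about 1 in 20. In *ndt80*Δ *tel1*Δ replicate 1 the median spread of reads was 84 bp over all hotspots (next 79 bp) and 209 bp in the longest group (next 185 bp). In replicate 4 of the same genotype chromosome II held 7.03% of reads (next 7.74%) and the *SSA1*–*EFB1* hotspot 316 RPM (next 229.6). In replicate 5 the *SNO1*–*SNZ1* hotspot held 944 RPM (next 61.7), the *PEX29*–*DIG2* hotspot 958 RPM (next 329.8), and the mean distance from the centromere on chromosome XIV was 253 kb (next 264 kb). In *tel1*Δ replicate 1 the mean distance on chromosome V was 146 kb (next 152 kb) and chromosome IX held 2.72% of reads (next 2.96%).

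Reads on sequences other than the nuclear chromosomes were listed in 3 libraries, 170378 in *ndt80*Δ *tel1*Δ replicate 3, 255528 in replicate 4 and 14018 in replicate 5, and 0 were listed in the other 7 libraries. They entered no comparison.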

How the results depend on the processing

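Against 670 hotspots, 174 windows and 163 strand changes called with all replicates, leaving out 1 replicate gave 208 to 1174, 90 to 545 and 50 to 257, and against 8 chromosomes, 8 distances and 0 strand offsets it gave 0 to 13, 0 to 10 and 0 to 1. In these sets the smallest p of the exact test, before adjustment, is 0.0286 or 0.0179. Hotspot calls fell to between 208 and 274 without each *tel1*Δ replicate and to 314 without *ndt80*Δ *tel1*Δ replicate 3, and rose to 1136 and 1174 without its replicates 4 and 5. Window calls were 90 to 105 without each *tel1*Δ replicate, 112, 106 and 545 without *ndt80*Δ *tel1*Δ replicates 1, 3 and 4. Strand calls were 50 to 103 without each *tel1*Δ replicate, and 257 and 87 without *ndt80*Δ *tel1*Δ replicates 2 and 3.

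Hotspot calls were 1043 with TMM factors (58.9% of them higher, against 86.4%), 1199 with DESeq2 (55.3% higher) and 1961 without the time-course libraries. The share higher was 67.6% with the hotspot total, 69.6% with background subtracted and 75.3% with the library series as a term, and these settings lowered the median log2 ratio by 0.16 to 0.26. Window calls were 286 with DESeq2, 478 with the library series as a term and 1000 without the time-course libraries, and 92.4%, 79.4% and 37.7% of calls were higher with TMM, DESeq2 and the series term, against 68.4%. With 1A and 1B apart there were 268 strand changes, 4 mean distances and 1 strand offset. Background-subtracted hotspot reads gave 13 distances and 12 mean distances. Without the time-course libraries 0 chromosomes and 0 distances passed, where no p can be under 0.0667. The cause of these shifts was not tested.

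With the replicate number as a block, 1362 hotspots and 282 windows passed. The block also takes *ndt80*Δ *tel1*Δ replicate 5, which has no partner, out of the comparison, and without that replicate alone 1174 hotspots and 236 windows passed. The series term likewise leaves the comparison to replicates 1 and 2 of that genotype. Deviations of samples of the same number correlated at 0.34, -0.09, 0.20 and 0.23, against -0.205 to 0.185 for 16 pairs of different numbers, and 6 of 8 samples correlated best with their own number. Since 1 of the 4 pairs was not above 0.1 and no source ties the numbers to a shared culture or day, the samples were not treated as pairs. The block kept the call of each named hotspot, with log2 ratios of 2.81, 0.69, 1.98, 1.60, 1.78 and 1.75 for the higher and between -1.20 and -1.05 for the lower.

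The balance of window calls turned from 119 higher and 55 lower to 273 and 727 without the time-course libraries and to 180 and 298 with the series term. Among single values, each direction that turned belonged to one that had not passed with all reads and replicates. On background-subtracted hotspot reads 2 of them then passed, the share at 100 to 200 kb on the 13 longer chromosomes (-0.7065 points) and the mean distance on chromosome IV (4.787 kb larger). The share beyond 400 kb on the 13 became -0.2637 points without the time-course libraries. The difference in the share of the shortest length group was -0.170 to 0.171 points with 1 replicate left out, and to 0.0470 with 1A and 1B apart, 0.192 with the other hotspot calls and 0.0632 with background subtracted. That of group 2 was -0.0577 to 0.825 with 1 replicate left out, and those of groups 2, 3 and 4 became -1.18, -1.104 and 2.97 without the time-course libraries. The spread difference became -1.40 (other hotspot calls) and -0.05 (10th to 90th percentile) in group 1, and -0.75 to 0.75 with 1 replicate left out, -0.25 without the time-course libraries and -0.30 with at least 1000 reads in group 2. The Watson share of nuclear reads became 0.0117 points higher without the time-course libraries, and the *SND1*–*CCT6* log2 ratio 0.24 there and with the series term.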
